A study of Homo sapiens with 16 samples.

Results

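The cytosolic ribosomal protein genes were taken by name: every listed gene whose symbol was RPL or RPS followed by a number and at most 1 of the letters A, X or L, together with RPLP0, RPLP1, RPLP2 and RPSA. The rule found 81 of the 27311 genes listed, 32 for the small subunit and 49 for the large subunit, of which 3 encode the P stalk, and it used no measured value. RNA was sequenced from 4 human immune cancer lines, each untreated or exposed for 4 hours to an immune ligand, with 2 libraries in each of the 8 groups. The monocytic lines were THP-1 and U937, the T cell line was Jurkat and the B cell line was BJAB. All THP-1 cells, untreated and treated, carried dCas9-KRAB, a Cas9 that binds without cutting and is fused to a repressor domain; the labels give U937, Jurkat and BJAB as wild type. THP-1 received bacterial lipopolysaccharide (LPS) at 1 µg/ml and U937 received LPS at 200 ng/ml. Jurkat received anti-CD3 at 5 µg/ml with phorbol 12-myristate 13-acetate (PMA) at 100 ng/ml, and BJAB received anti-IgM at 10 µg/ml with anti-CD40 at 4 µg/ml. Untreated cells of the same line were the controls. No label says whether the 2 libraries of a group came from separate cultures, so p-values measure the spread between these libraries, which may be technical.

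The cytosolic ribosome is built from a small subunit, which reads the mRNA, and a large subunit, which joins amino acids. Each subunit holds one copy of almost all its proteins, and the P stalk, formed by RPLP0 with RPLP1 and RPLP2, recruits elongation factors. The genes lie on many chromosomes, yet their mRNAs are known to be made and translated as a group. Most of these mRNAs begin with a C followed by an unbroken run of C and T bases, the 5′ terminal oligopyrimidine tract, through which mTOR signalling and the protein LARP1 control their translation and stability. Ligands that activate lymphocytes and monocytes act on growth pathways that use this control.

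The start sequences show this shared feature, which the choice of members did not use. Of the 81 genes, 64 had an entry in the RefSeq promoter table of build GRCh38.p14. A C at the annotated start followed by at least 4 bases that were each C or T, read on the gene's own strand, was present at 46 of them (71.9%). The same start was present at 5.14% of the 27305 genes in the table and at 6.94% of the 10546 other genes tested here. Below are 8 members on which later results turn or that differ at this position; each window holds 15 bases before the start and 15 from it, and capitals mark the C and the pyrimidine run that follows it inside the window.
RPS6, chr9:19380222-19380251, minus strand: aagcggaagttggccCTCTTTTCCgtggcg
RPS27, chr1:153990747-153990776, plus strand: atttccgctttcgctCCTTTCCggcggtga
RPL39, chrX:119791616-119791645, minus strand: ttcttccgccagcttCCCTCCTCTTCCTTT
RPLP2, chr11:809952-809981, plus strand: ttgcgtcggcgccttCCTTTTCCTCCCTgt
RPL18, chr19:48619164-48619193, minus strand: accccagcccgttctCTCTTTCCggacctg
RPS25, chr11:119018329-119018358, minus strand: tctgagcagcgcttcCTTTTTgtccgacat
RPS27L, chr15:63157463-63157492, minus strand: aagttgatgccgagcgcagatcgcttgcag
RPS4X, chrX:72277234-72277263, minus strand: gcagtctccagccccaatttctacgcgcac
The run extends to 19 bases in RPL39 and to 13 in RPLP2, and it is 6 bases in RPS25. RPS27L, the paralog of RPS27, and RPS4X have no such run at the annotated start. An annotated start can differ from the start used in a cell line, so the absence of these letters says only that they are not in this window.

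Values are TPM, transcripts per 1000000, from uniquely aligned reads, and TPM is a share, so a rise of other genes lowers every member. Reads recovered from the TPM steps numbered 4125273 to 8432015 per library, and 4.67 to 8.41% of them fell on the members. The lines carried most markers of their labelled lineages: summed monocytic markers were 5598 to 5853 TPM in the THP-1 controls and 3716 to 4044 TPM in the U937 controls, T cell markers 4609 to 4956 TPM in the Jurkat controls and B cell markers 5268 to 5596 TPM in the BJAB controls. Of the 9 monocytic markers 2 were lower in untreated U937 than in the mean of the other lines. The Jurkat controls also held 162 to 185 TPM of B cell markers. The BJAB controls held 92.1 to 94.7 TPM of T cell markers and 113 to 133 TPM of monocytic markers. For a check on length the tested genes were cut into 5 classes of equal size by recovered length. By these classes or by the level of their members, 3 stimulated libraries stood apart. In the first U937 LPS library the 4 longer classes had medians of -0.40 to -0.85 against the controls on the log2 scale while the shortest class stood at 0.10. In the first BJAB stimulated library the 4 longer classes had medians of -0.23 to -0.30, and in the second THP-1 LPS library they were at -0.11 to -0.17 while the median member stood at 0.39. That THP-1 library was set apart with the high level of its members in view. The longest class stood at -0.13 in the second stimulated Jurkat library and -0.12 in the second of BJAB, which were kept. Members are short, with a median length of 898.5 bases against 3119 for the other tested genes, so values without these libraries are given beside the calls and medians after stimulation and where a named member's value turns sign or moves by over 1.5 times. The part of this length difference in the results was not tested. In bulk RNA a smaller share of cells expressing a gene and less of its RNA per cell cannot be told apart.

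Most members were among the most abundant mRNAs of all 4 lines. Of the 81, 78 were above 0 in every library and entered the tests, and their mean over the 16 libraries had a median of 1700 TPM, with 53 of them above 1000 TPM. RPL7 was highest, at a mean of 5969 TPM, followed by RPS27 at 4718 TPM, RPS6, the small subunit protein phosphorylated by S6 kinases, at 4079 TPM, RPLP1 of the P stalk at 3823 TPM and RPS14 at 3332 TPM. The lowest tested members were RPL36A at 4.33 TPM, RPL17 at 35.9 TPM, RPL28 at 77.2 TPM, RPS10 at 100.4 TPM and RPL39L, a paralog of RPL39, at 194 TPM. RPL21 and RPL10L were listed at 0 in all 16 libraries. RPL3L, the muscle paralog of RPL3, was listed at 0.364 TPM in the first Jurkat control and at 0 in the other 15 libraries.

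These levels are per length, and the length behind a value can set where a member ranks. The recovered gene lengths ran from 359 bases for RPS27 to 6031 bases for RPL15, and 17 members were longer than 1500 bases, among them RPL28 at 5183 bases and RPL36A at 2911 bases. Ribosomal protein genes also have many processed pseudogenes, and a read that fits a copy equally well is not uniquely aligned, so a low value such as that of RPL17 or RPL36A, and the 0 of RPL21, may be an under-count; this was not tested. The joined loci RPL17-C18orf32, RPL36A-HNRNPH2 and RPS10-NUDT3 were listed at 0 in all libraries. Each tested member was covered by 20 to 38243 reads per library, with a median of 4431, so counting error was small for most members.

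Together the members held 10.97 to 16.7% of the TPM of a library. The share was 12.9 and 12.3% in the THP-1 controls and 12.8 and 16.7% after LPS. In U937 it was 13.5 and 12.5% in the controls and 15.2 and 12.8% after LPS. The ranges of controls and LPS libraries overlapped in both lines, and the high LPS value in each came from 1 library. In Jurkat the share was 12.1 and 14.1% in the controls and 13.8 and 11.9% after stimulation, while the BJAB controls held 12.8 and 14.6% and the stimulated BJAB libraries 12.1 and 10.97%. BJAB was the line in which both stimulated libraries lay below both controls, with means of 13.7% ± 1.33 (SD, n = 2) and 11.6% ± 0.830 (SD, n = 2). With 2 libraries against 2 no exact test of the share could pass 0.05, and none was made. The ratio of summed large-subunit TPM to summed small-subunit TPM stayed between 1.38 and 1.57 in all 16 libraries.

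**Figure D1:**
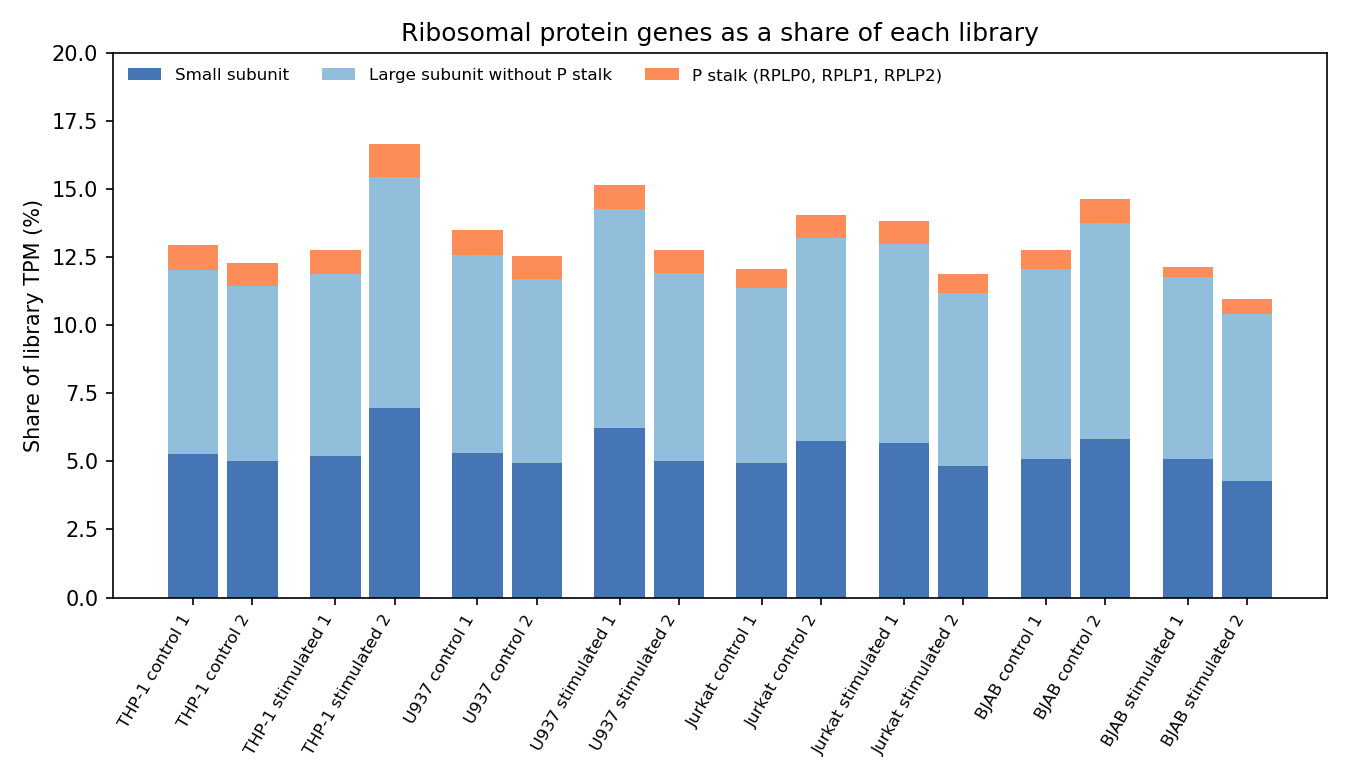
Share of library TPM held by the 81 ribosomal protein genes (y axis, percent, from 0) in each of the 16 libraries, stacked by small subunit, large subunit without the P stalk, and P stalk. The totals run from 10.97% in the second BJAB stimulated library to 16.7% in the second THP-1 LPS library, and the small and large subunits keep similar proportions.

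Members varied less between libraries than other genes did. The fold between the highest and the lowest of the 16 libraries had a median of 2.29 over the 78 members, against 6.68 over the 9570 tested genes detected in every library, and 30 members stayed under 2-fold. RPL3, which reaches towards the peptidyl transferase centre, had the narrowest range, 2328 to 2995 TPM (1.29-fold), and RPLP2 of the P stalk the widest, 524 to 3241 TPM (6.18-fold). Both ends of the RPLP2 range came from libraries that stood apart, the first BJAB stimulated and the second THP-1 LPS library. Its untreated line means spanned 1.74-fold. A narrow range is common among abundant mRNAs, which carry little counting error, and the 2 sets were not matched for level.

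Members also shifted together between the 2 libraries of a group, where no treatment differed. In the Jurkat controls 74 of 78 members were higher in the second library, with a median difference of 0.25 on the log2(TPM + 1) scale, and in the BJAB controls 72 were, with a median of 0.23. All tested genes had medians of -0.02 and 0 in the same comparisons. In the THP-1 controls 68 members, and in the U937 controls 65, were lower in the second library, by medians of -0.09 and -0.10. After LPS, 73 members were higher in the second THP-1 library, by a median of 0.41, and 65 were lower in the second U937 library, by a median of -0.25. The 2 BJAB stimulated libraries split evenly, 38 against 40, but with a wide spread: the SD over members was 0.53, against 0.09 to 0.26 in the other 7 groups. A joint move of the members between groups therefore has to be read against medians of up to 0.41 between libraries treated alike.

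**Figure D2:**
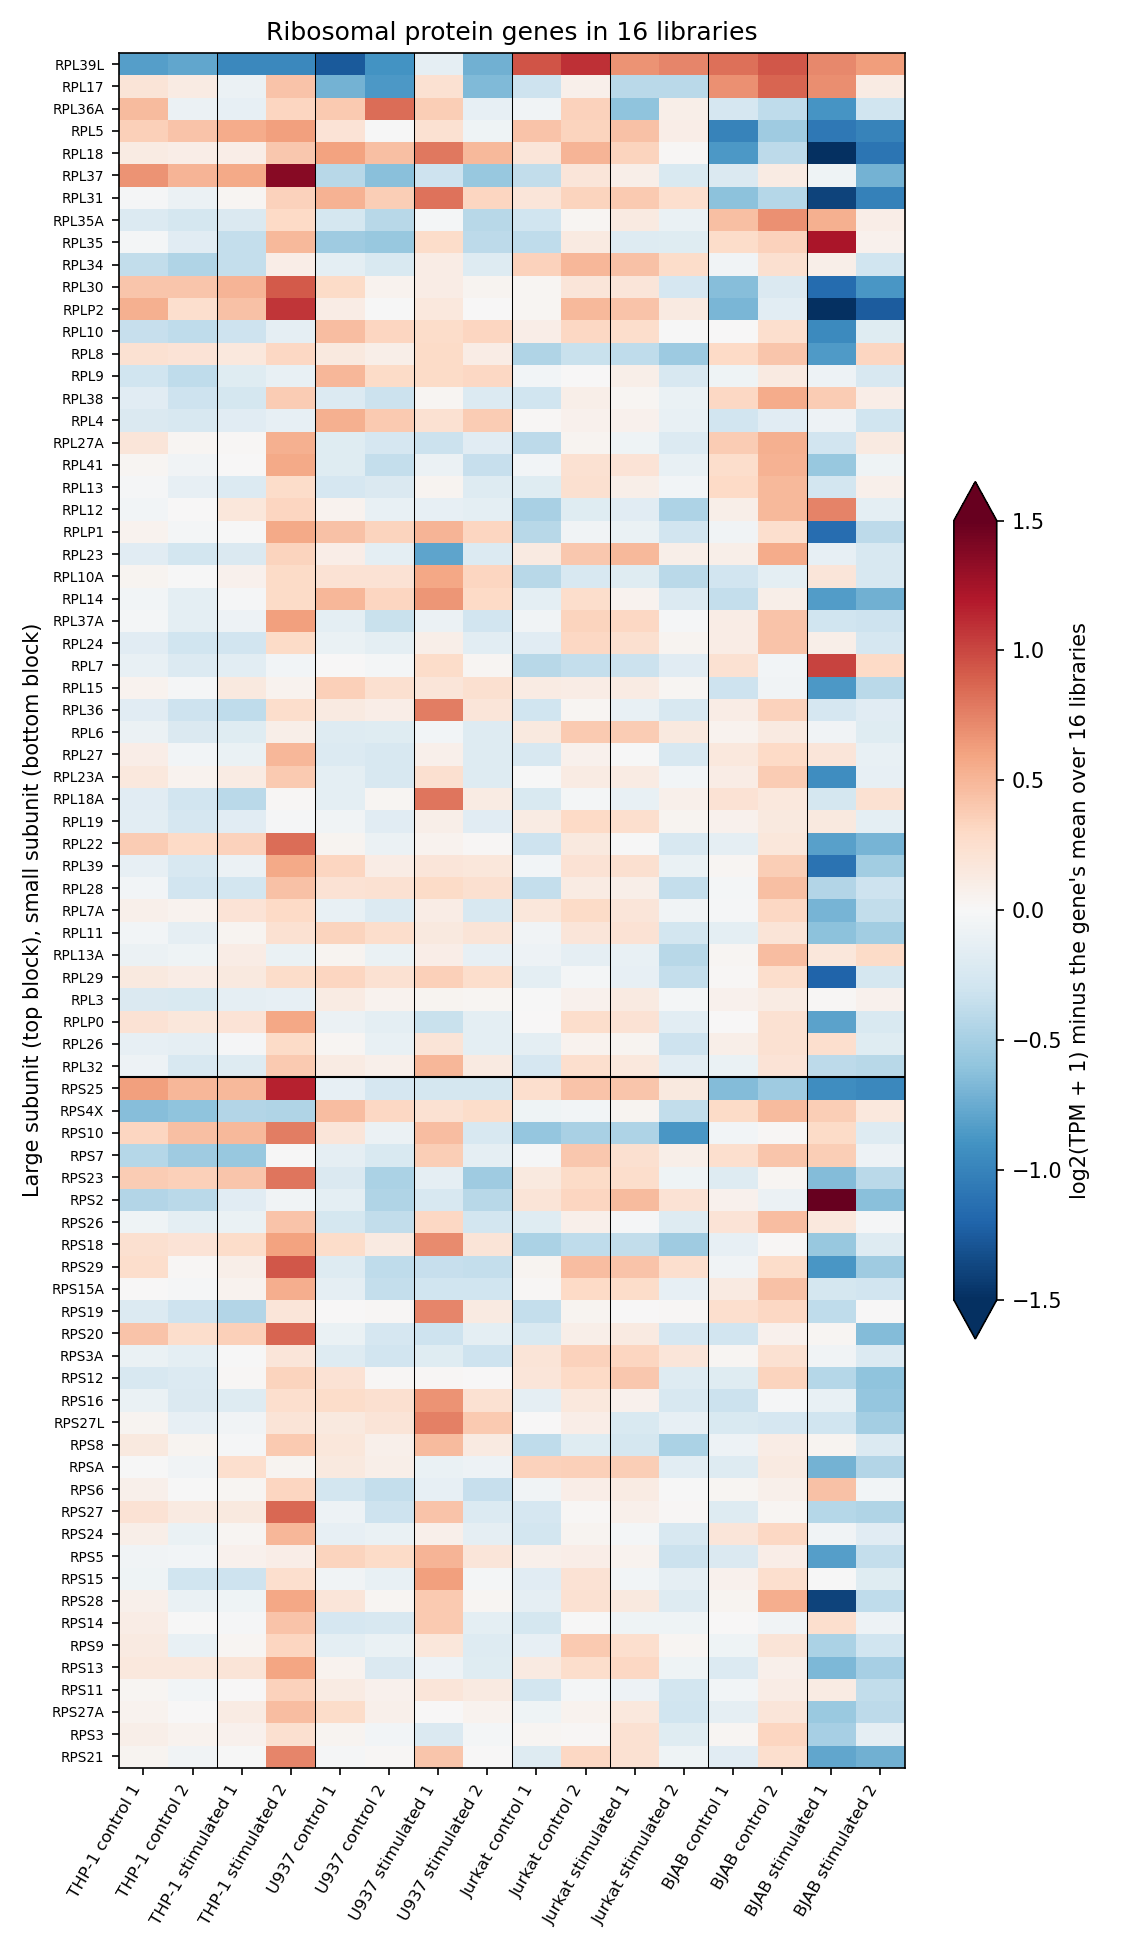
Levels of 77 of the 78 tested members (rows, large subunit above and small subunit below, ordered by the fold between untreated lines) in 16 libraries (columns), as log2(TPM + 1) minus each gene's mean over the libraries; colours saturate at 1.5. RPL39L separates Jurkat and BJAB from THP-1 and U937, the columns of the second THP-1 LPS library and of the first BJAB stimulated library stand out, and RPL5, RPL18, RPL31 and RPS25 are low in all 4 BJAB libraries.

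Between untreated lines a minority of members of both subunits differed in level. Each line was compared with the mean of the other 3 by limma on log2(TPM + 1) over all 16 libraries, with Benjamini-Hochberg adjustment over 14398 genes and a threshold of 0.05. In THP-1 3 members were higher and 8 lower, 11 of 78 where 34.9% of all tested genes were called, 17.6% higher and 17.3% lower. In U937 7 were higher and 4 lower, where 35.9% of all genes were called, 15.1% higher and 20.8% lower. Jurkat had 5 higher and 3 lower (38% of all genes, 22% higher and 16% lower), and BJAB 6 higher and 7 lower (39.5%, 14.5% higher and 25% lower). The members' share was below that of all genes in each line. In all, 27 members (34.6%) were called in at least 1 line, against 62.2% of tested genes, and 11 members in at least 2. A gene's calls in several lines are not independent, since each line is part of the mean for the others. The median member differed little, by -0.07 in THP-1, -0.03 in U937, 0.00 in Jurkat and 0.09 in BJAB, where all genes had medians of -0.08, -0.11, 0.14 and -0.15. The small medians of THP-1, U937 and Jurkat change sign with the scaling: in THP-1 the members' median is 0.05 under median-of-ratios scaling. The BJAB median stayed positive, from 0.02 under quantile normalization to 0.14 under median-of-ratios scaling. Only with each library centred on the members was it negative (-0.03). The fold between the highest and lowest line mean was under 1.5 for 47 members and above 2 for 8, with a median of 1.43, against a median of 2.56 over 11135 genes detected in every untreated line.

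RPL39L showed the largest difference between lines and was called in all 4. It encodes a paralog of RPL39, a small protein of the nascent peptide exit tunnel, and is best known from male germ cells. Its level was 92.7 and 95.5 TPM in the THP-1 controls, 68.1 and 88.2 TPM in the U937 controls, 317 and 355 TPM in the Jurkat controls and 293 and 316 TPM in the BJAB controls. The lymphocyte lines lay above the monocytic lines with no overlap. Relative to the other 3 lines it was 1.35 ± 0.18 (SE) higher in Jurkat (adjusted p = 0.000106) and 1.17 ± 0.18 higher in BJAB (adjusted p = 0.000288) on the log2 scale. It was lower in U937, at -1.44 ± 0.18 (adjusted p = 7.51e-05), and in THP-1, at -1.08 ± 0.18 (adjusted p = 0.000662). RPL39 itself was not called between untreated lines, and RPL39L made up 2.66 to 5.34% of the summed TPM of the pair in the monocytic controls and 10.9 to 14.1% in the lymphocyte controls.

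BJAB was low in 4 genes of both subunits at once. RPL5, which with RPL11 and 5S rRNA forms the particle that can bind MDM2 when ribosome assembly fails, was at 1459 and 2027 TPM in the BJAB controls. The other untreated libraries were at 3759 and 3934 TPM in THP-1, 3389 and 2920 TPM in U937 and 3948 and 3693 TPM in Jurkat, so the BJAB libraries lay below all 6. The difference was -1.06 ± 0.14 (SE; adjusted p = 9.74e-05). RPL11 was not called in any untreated line.

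RPS25, a small subunit protein needed by some viral internal ribosome entry sites, was at 1186 and 1282 TPM in the BJAB controls, 2863 and 2627 TPM in THP-1, 1710 and 1559 TPM in U937 and 2212 and 2509 TPM in Jurkat. It was lower in BJAB (-0.83 ± 0.16, adjusted p = 0.00121) and higher in THP-1 (0.71 ± 0.16, adjusted p = 0.00425), and no 2 lines overlapped. RPL18 was at 721 and 1002 TPM in BJAB and at 1405 to 1989 TPM in the other untreated libraries, a difference of -0.95 ± 0.20 (adjusted p = 0.00273). RPL31, which lies near the exit of the peptide tunnel, was at 562 and 637 TPM in BJAB against 808 to 1232 TPM elsewhere (-0.74 ± 0.17, adjusted p = 0.00374). All 4 stayed below the other lines in the 2 stimulated BJAB libraries as well. RPL30 (-0.66 ± 0.17), RPLP2 (-0.65 ± 0.21) and RPL4 (-0.32 ± 0.10) were also lower in BJAB.

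Other members were higher in BJAB, so the line was not low in ribosomal protein mRNA as a whole. RPL17 was at 55.0 and 62.7 TPM in the BJAB controls, 38.7 and 36.8 TPM in THP-1, 27.0 and 35.5 TPM in Jurkat and 20.2 and 18.1 TPM in U937. It was higher in BJAB (1.03 ± 0.27, adjusted p = 0.00892) and lower in U937 (-1.06 ± 0.27, adjusted p = 0.00872), on 44 to 250 reads per library. RPL35A, mutated in some families with Diamond-Blackfan anaemia, was at 2347 and 2762 TPM in BJAB against 1285 to 1757 TPM elsewhere (0.80 ± 0.18, adjusted p = 0.00387). RPL38 (0.63 ± 0.18) and RPL27A (0.55 ± 0.19) were higher as well.

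RPS4X, the X-linked gene for a small subunit protein, was called in 3 lines. It was at 1665 and 1703 TPM in the THP-1 controls, 3557 and 3207 TPM in U937, 2468 and 2517 TPM in Jurkat and 3170 and 3608 TPM in BJAB. THP-1 was lower than the others by -0.86 ± 0.12 (SE; adjusted p = 0.000162), and U937 and BJAB, which overlapped each other, were higher by 0.48 ± 0.12 each (adjusted p = 0.00867 and 0.00726). THP-1 was also lower in RPL10, which takes part in subunit joining, by -0.61 ± 0.19, in RPS7 by -0.59 ± 0.19, in RPL34 by -0.52 ± 0.17 and in RPL9 by -0.48 ± 0.12. It was higher in RPL37 (0.81 ± 0.25) and RPL5 (0.49 ± 0.14).

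RPL4, whose long loop reaches into the peptide exit tunnel, was highest in U937, at 3814 and 3474 TPM against 2168 to 2754 TPM in the other untreated libraries, a difference of 0.60 ± 0.10 (SE; adjusted p = 0.000736). U937 was also higher in RPL18 (0.58 ± 0.20), RPL31 (0.55 ± 0.17) and RPL9 (0.50 ± 0.12), and lower in RPS23, a protein of the decoding centre, by -0.51 ± 0.18 and in RPS3A by -0.33 ± 0.11. Jurkat was higher in RPL34 (0.59 ± 0.17), RPL5 (0.47 ± 0.14), RPL6 (0.35 ± 0.13) and RPS3A (0.34 ± 0.11), and lower in RPS10 (-0.67 ± 0.23), RPL8 (-0.62 ± 0.22) and RPS18 (-0.55 ± 0.16). RPL18 and RPL31 were called higher in U937 and lower in BJAB, and RPL5 higher in THP-1 and Jurkat and lower in BJAB. These calls are not independent, since a low BJAB level lowers the mean that the other lines are set against. The line means of RPL5 were 3846 TPM in THP-1, 3154 TPM in U937, 3820 TPM in Jurkat and 1743 TPM in BJAB. Those of RPL18 were 1415, 1892, 1680 and 862 TPM in the same order.

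**Figure D3:**
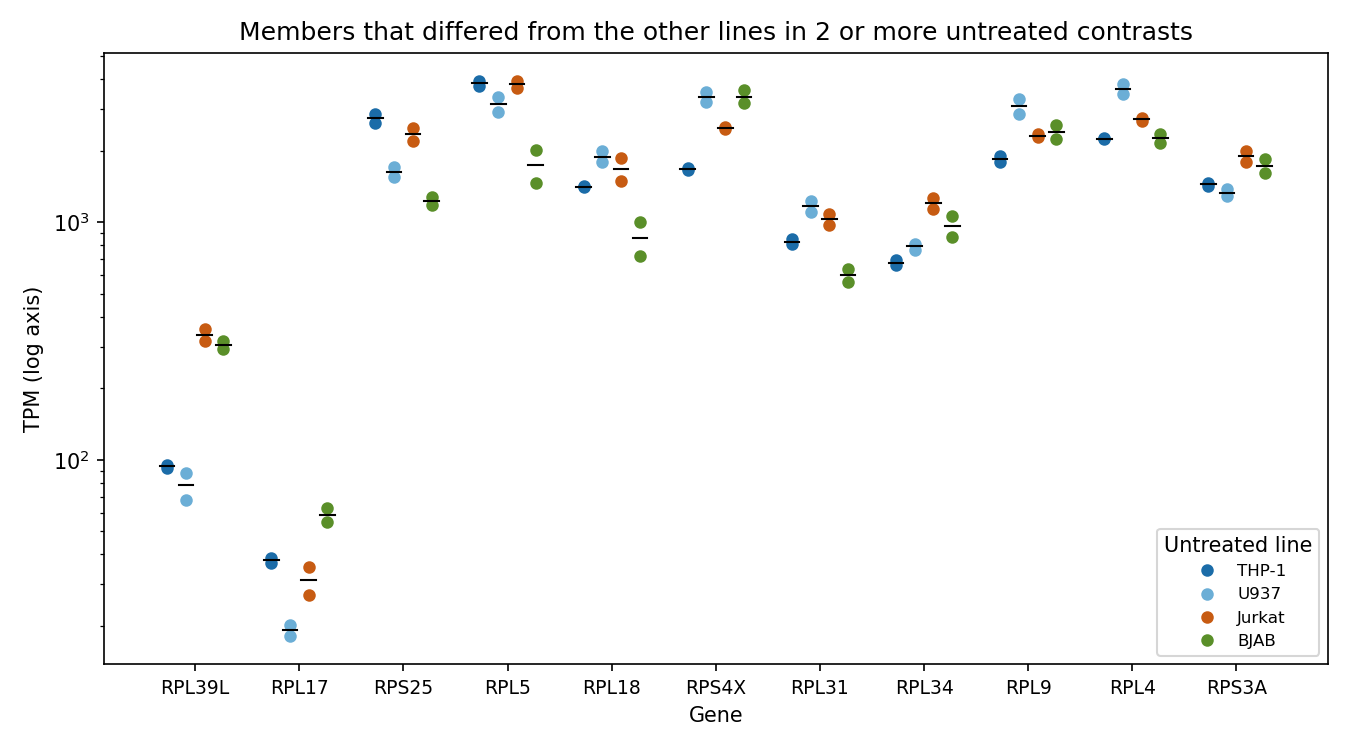
TPM (log axis) of the 11 members called in 2 or more untreated contrasts, in the 2 control libraries of each line (points) with their mean (short line). RPL39L lies between 68.1 and 95.5 TPM in THP-1 and U937 and between 293 and 355 TPM in Jurkat and BJAB, and RPL5, RPS25, RPL18 and RPL31 are lowest in BJAB.

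The calls differed in how far they depended on the fit. RPL39L in all 4 lines, RPS4X in THP-1, and RPL5 and RPS25 in BJAB kept an adjusted p under 0.05 in all 31 alternatives tried. The counts moved in both directions. Except for the controls alone, they are given without the share of all tested genes called in the same fit. They therefore do not show whether the members or all genes moved. Under median-of-ratios scaling 3 members were called in THP-1, 1 in U937, 2 in Jurkat and 5 in BJAB: RPL39L in each line, RPS4X and RPS25 in THP-1, RPL8 in Jurkat, and RPL5, RPL18, RPS25 and RPL17 in BJAB. All 7 higher calls in U937 were lost there. With voom on the recovered reads the counts were 5, 5, 2 and 11. With the 8 controls alone 29 members were called in THP-1, 40 in U937, 21 in Jurkat and 34 in BJAB, where 61.3, 63.5, 64.5 and 65.0% of 13723 tested genes were called. Without the 3 libraries that stood apart the counts were 27, 35, 19 and 30.

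The effect of stimulation was measured in each line against its own controls. After anti-IgM and anti-CD40, which engage the B cell receptor and CD40, 3 of 78 members passed the threshold in BJAB and all 3 fell, where 6.4% of all tested genes were called and 4.76% were called lower. RPL39 was at 2043 and 2586 TPM in the controls and 926 and 1393 TPM after stimulation. RPLP2 was at 963 and 1386 TPM in the controls and 524 and 653 TPM after stimulation, and RPL7A, a large subunit protein, was at 1707 and 2142 TPM and then 1062 and 1330 TPM. Both stimulated libraries lay below both controls for each of the 3 genes. RPL39 fell by 1.02 ± 0.25 (SE) on the log2(TPM + 1) scale (adjusted p = 0.0338), RPLP2 fell by 0.98 ± 0.25 (adjusted p = 0.0447) and RPL7A fell by 0.69 ± 0.17 (adjusted p = 0.0405).

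Most other members also had lower levels after BJAB stimulation without passing the threshold. Of 78 members, 69 had a negative difference, the median was -0.36 against -0.14 over all tested genes, and 31 had an unadjusted p under 0.05. Among all 14398 tested genes 8430 had a negative difference and 3481 had an unadjusted p under 0.05. In 49 members both stimulated libraries lay below both controls, 62.8% of members where 32.9% of all tested genes did so. RPL7 was the 1 member with both stimulated libraries above both controls, at 6793 and 5621 TPM and then 11707 and 7119 TPM. RPLP1 had a difference of -0.87 ± 0.25 (adjusted p = 0.0615) and RPLP0 of -0.64 ± 0.21 (adjusted p = 0.0995), so that all 3 P stalk genes had lower levels, and the stalk's share of TPM was 0.702 and 0.870% in the controls and 0.362 and 0.558% after stimulation. RPL22, which is required in mice for the development of alpha-beta T cells, had a difference of -0.77 ± 0.22 (adjusted p = 0.0628), RPL11 one of -0.59 ± 0.18 (adjusted p = 0.073) and RPSA, also known as a laminin receptor, one of -0.54 ± 0.19 (adjusted p = 0.114). With the 3 libraries that stood apart left out, the first stimulated BJAB library among them, RPLP1 stood at -0.50 (adjusted p = 0.114) and RPLP0 at -0.35 (adjusted p = 0.256). RPL3 (-0.05 ± 0.11), RPS4X (-0.12 ± 0.15), RPS6 (0.14 ± 0.16), RPL5 (-0.26 ± 0.18), RPS27 (-0.36 ± 0.24), RPS27L (-0.16 ± 0.19) and RPL39L (-0.21 ± 0.22) were not called. In the same fit RPS6 turned to -0.10, RPL3 stood at -0.03, RPS4X at -0.23 and RPS27L at -0.26.

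The 2 BJAB stimulated libraries shared the shift but not its spread. The median member stood at -0.45 in the first and -0.37 in the second relative to the mean of the controls. In the first library single members ranged from -1.68 for RPS28 to 1.75 for RPS2, which was at 5307 TPM there and at 1028 to 1659 TPM in the other 3 BJAB libraries; in the second library they ranged from -0.82 for RPLP2 to 0.20 for RPL7. Without the first library the difference was -0.72 for RPL39, -0.82 for RPLP2 and -0.52 for RPL7A, and with that library alone left out no member was called. With all 3 libraries that stood apart left out, 2 members were called lower, and they were not those 3: RPL31 (-0.49, adjusted p = 0.0383) and RPS2 (-0.61, adjusted p = 0.0388). Counts of calls with 1 or 3 libraries left out or under quantile normalization are given without the share of all tested genes called. They show how far the calls depended on libraries and scaling, not how the members responded. Leaving out any 1 control library of the 4 lines, or either stimulated Jurkat library, also left 0 calls; leaving out either U937 LPS library gave 9 and either THP-1 LPS library 2. Under median-of-ratios scaling, which moves the median of all genes from -0.14 to 0, the members' median was -0.04 and none was called; under quantile normalization 9 fell and 1 rose. With each library centred on the members' own median, RPL7 alone was called, and it was higher (2.64% of all genes called). Relative to the median of all genes the members stood at -0.22 as reported, -0.04 under median-of-ratios scaling and -0.05 with voom on the recovered reads. The values were -0.48 under quantile normalization and -0.34 without the libraries that stood apart.

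**Figure D4:**
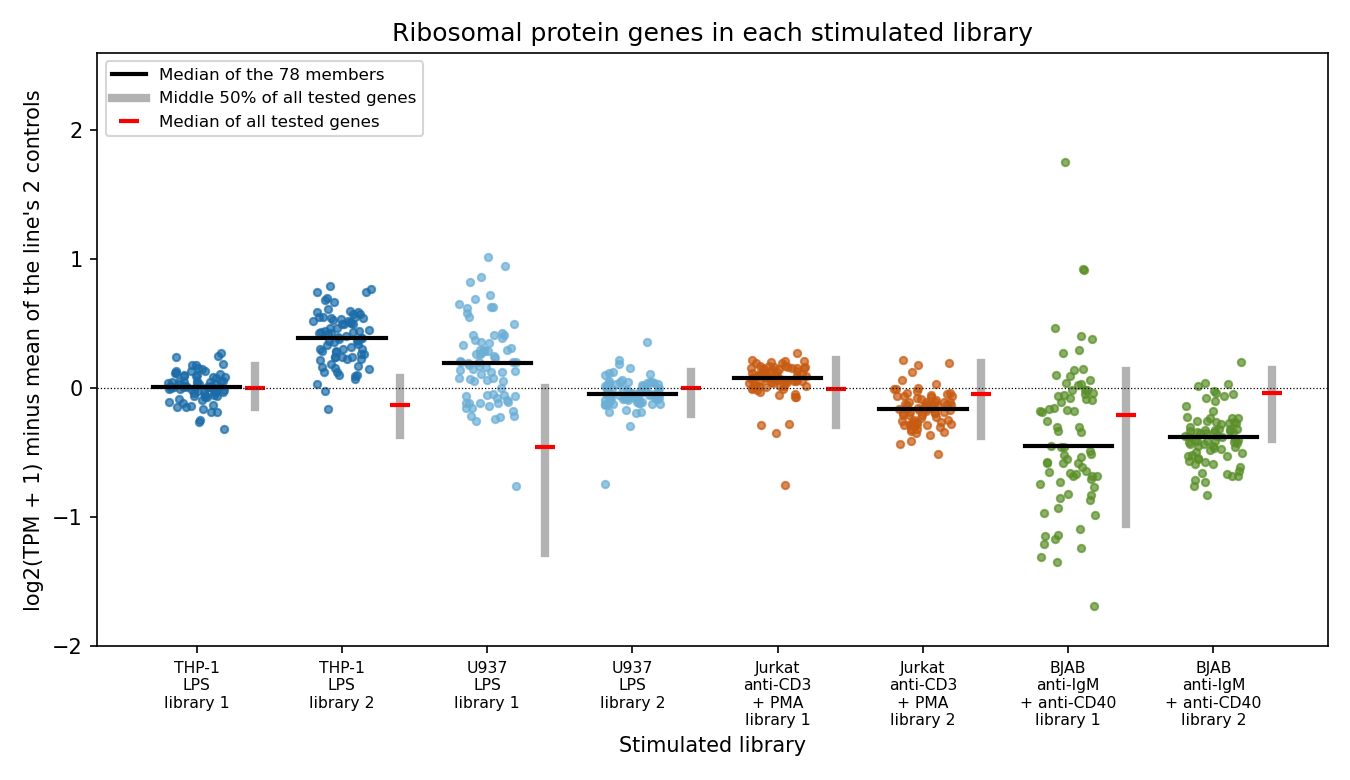
Difference of each of the 78 members (points) from the mean of its line's 2 controls in each stimulated library, on the log2(TPM + 1) scale; black lines are the members' medians, and grey bars and red marks give the middle 50% and the median of all tested genes. Both BJAB libraries have medians below 0 (-0.45 and -0.37), the first with a wide spread, whereas the 2 libraries of THP-1 (0.01 and 0.39), U937 (0.20 and -0.04) and Jurkat (0.08 and -0.16) do not repeat each other.

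Members with the pyrimidine start described above stood lower in stimulated BJAB cells than members without it. This split was made after the stimulation values had been seen. The 45 tested members with that start had a median of -0.49 and included all 3 called genes that matched the table, and the 17 without it had a median of -0.19. By library the medians were -0.58 and -0.09 in the first stimulated library and -0.41 and -0.28 in the second. The other tested genes showed the same order: the 732 with that start had medians of -0.41 and -0.13 in the 2 libraries, and the 9814 without it -0.22 and -0.03. Named lists did not all follow it. In the BJAB contrast 15 translation factor and other mRNAs known for a pyrimidine start had a median of -0.01, with 7 positive and 8 negative. The 7 small nucleolar RNA host genes listed for the same start had a median of -0.51, and all tested genes one of -0.14. In U937 members with that start also had the lower median in both libraries (0.18 against 0.29, and -0.05 against -0.00). In THP-1 they had the higher median in both (0.01 against -0.00, and 0.43 against 0.27), and in Jurkat the classes lay close together (0.09 against 0.08, and -0.15 against -0.16). Other tested genes with that start also had the lower median in both U937 libraries (-0.59 against -0.52, and -0.02 against 0). In THP-1 they had the higher median in both (0.02 against 0, and -0.11 against -0.15). In Jurkat their medians were 0 against -0.004 and -0.07 against -0.04. No test was made of this split.

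**Figure D5:**
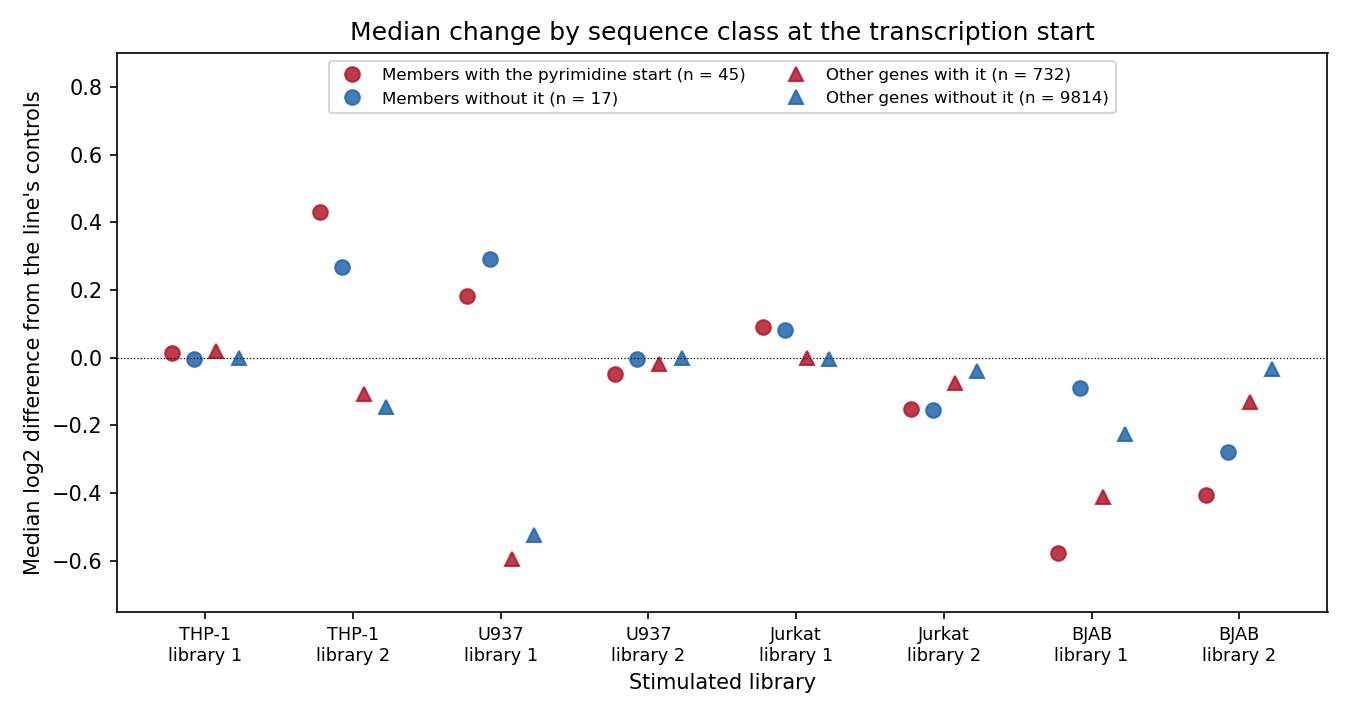
Medians in each stimulated library, as log2(TPM + 1) minus the mean of its line's 2 controls (y axis), for members with and without the pyrimidine start (circles) and for other tested genes with and without it (triangles). In both BJAB libraries the genes with that start have the lower median within each pair, -0.58 against -0.09 and -0.41 against -0.28 for the members.

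After LPS no member passed the threshold in THP-1, where 0.167% of all tested genes were called, and none had an unadjusted p under 0.05. All the same, 76 of 78 members had positive differences, as did 5217 of all 14398 tested genes. The members' median was 0.20 against -0.06 over all tested genes, and in 27 members both LPS libraries lay above both controls (12.2% of all genes). The shift came from 1 library: the median member stood at 0.01 in the first LPS library and 0.39 in the second, and without the second the median of the contrast was 0.01. Since the second was set apart with its high members in view, the smaller median without it followed from that choice. RPL39, the member with the largest difference, was at 1834 and 1693 TPM in the controls and 1878 and 2955 TPM after LPS (0.42 ± 0.25, SE). RPS27 was at 5336 and 5031 TPM and then 5085 and 8338 TPM (0.33 ± 0.24), and RPS6 at 4258 and 4031 TPM and then 4115 and 5057 TPM (0.14 ± 0.16). In each of these the first LPS library lay close to the controls, and without the second the differences were 0.09 for RPL39, -0.03 for RPS27 and -0.01 for RPS6.

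In U937 no member passed the threshold after LPS either, where 0.0278% of all genes were called. An unadjusted p under 0.05 was found for 2 of 78 members and for 2176 of all 14398 genes. The median member stood at 0.07 while all genes had a median of -0.25, and scaling decided this value: it was 0.55 under median-of-ratios scaling and -0.09 under quantile normalization, and without the first LPS library it was -0.04 with all genes at 0. In 18 members both LPS libraries lay above both controls (11.2% of all genes) and in 11 below (30.7%). With both LPS libraries RPL39L had the largest difference, with 68.1 and 88.2 TPM before and 151 and 99.9 TPM after treatment (0.66 ± 0.22, adjusted p = 0.329). With the 3 libraries that stood apart left out, the first U937 LPS library among them, RPL39L stood at 0.36 (adjusted p = 0.632) and RPL36A, on 20 to 79 reads per library, was farther from the controls, at -0.74 (adjusted p = 0.717). The level of RPL39L in U937 after LPS remained below its level in every Jurkat and BJAB library. The median member stood at 0.20 in the first LPS library and -0.04 in the second. Leaving out the second gave some higher calls, but the share of all genes called in that fit is not given.

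In Jurkat anti-CD3 and PMA, which act through the T cell receptor complex and protein kinase C, changed 4.87% of all tested genes, and no member was among them or had an unadjusted p under 0.05. The median difference was -0.04, against -0.03 over all genes, and 54 of 78 members had negative values, as did 7675 of all 14398 genes. In 1 member both stimulated libraries lay above both controls and in 4 below, against 21.0 and 28.7% of all genes. The groups overlapped: the share of TPM spanned 12.1 to 14.1% in the controls and 11.9 to 13.8% after stimulation. RPS6 was at 3894 and 4338 TPM and then 4387 and 4017 TPM, and RPLP0 at 2506 and 2994 TPM and then 2908 and 2228 TPM, so that the groups overlapped in both. The differences of the 14 members described in every line whatever their values ran from -0.32 for RPL39L to 0.16 for RPS27 in Jurkat.

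The differences between responses were tested directly. No member was called for the LPS response of THP-1 minus that of U937, where 0.0486% of all genes were, or for the response of Jurkat minus that of BJAB, where 5.24% were. In the first, 1 of 78 members had an unadjusted p under 0.05, where 891 of all 14398 genes did. In the second 8 members did, where 2399 of all genes did. For Jurkat minus BJAB 65 of 78 members and 8402 of all 14398 genes had positive values, with a median of 0.34 against 0.14 over all genes. RPL39 had a difference of 1.00 ± 0.35 (SE; adjusted p = 0.157) and RPLP2 one of 1.01 ± 0.36 (adjusted p = 0.168). The fall of these genes in BJAB was therefore not shown to differ from their response in Jurkat. Some members were called for this difference without the second BJAB stimulated library, and for THP-1 minus U937 without the second U937 LPS library. Each of these fits kept 1 stimulated library of the line, and the share of all genes called is not given.

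A paralog's share can move with its own level or with that of its partner. In BJAB, RPL39L made up 12.6 and 10.9% of the summed TPM of RPL39L and RPL39 without stimulation and 22.7 and 15.4% with it, while its own level went from 293 and 316 TPM to 272 and 254 TPM and was not called. In U937 the share was 2.66 and 3.92% in the controls and 6.26 and 4.26% after LPS, while RPL39 had a difference of -0.04 and RPL39L one of 0.66, neither of them called. RPS27L, a p53 target gene whose product resembles RPS27, held 2.85 to 6.55% of its pair in the 16 libraries, at 150 to 360 TPM, and was called in no contrast.

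Genes related to the members were read for comparison. Of 15 translation factor and other mRNAs known for a pyrimidine start, none was called after any stimulation, and in BJAB their median was -0.01 against -0.36 for the members. Of 7 ribosomal proteins outside the naming rule none was called after stimulation, with a median of -0.27 in BJAB; between untreated lines FAU, whose product is cut to give RPS30, was higher in BJAB (0.89 ± 0.15, SE) and lower in U937 (-0.54 ± 0.15). EIF3E (-0.69 ± 0.17) and EIF3H (-0.67 ± 0.15), subunits of initiation factor 3, were lower in untreated BJAB. Of the same 15 mRNAs, 1 was called lower in untreated THP-1, 2 higher and 2 lower in U937, and 2 higher and 1 lower in Jurkat. Of all tested genes 34.9, 35.9, 38 and 39.5% were called in untreated THP-1, U937, Jurkat and BJAB. The 7 small nucleolar RNA host genes had a median of -0.51 in stimulated BJAB cells with none called. Among them SNHG5 was called in all 4 untreated lines, lower in BJAB (-1.22 ± 0.20) and THP-1 (-0.75 ± 0.20) and higher in U937 (1.35 ± 0.20) and Jurkat (0.63 ± 0.20), and SNHG1 fell by 1.26 ± 0.28 in stimulated Jurkat cells (adjusted p = 0.0239).

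The mitochondrial ribosome has its own protein genes, which are separate from the cytosolic set. Of 77 tested mitochondrial ribosomal protein genes, none was called after LPS, 1 rose in Jurkat and 2 fell in BJAB. Of all tested genes 4.87% were called in Jurkat and 4.76% were called lower in BJAB, so these counts are not read as a response of the set. MRPL39 was at 339 and 298 TPM in the Jurkat controls and 810 and 896 TPM after stimulation (1.42 ± 0.22, SE; adjusted p = 0.00211). In BJAB MRPS6 fell from 279 and 292 TPM to 99.1 and 142 TPM (-1.26 ± 0.22, adjusted p = 0.00723) and MRPL34 from 237 and 213 TPM to 81.0 and 129 TPM (-1.13 ± 0.27, adjusted p = 0.0339). Their median in BJAB was 0.04, against -0.36 for the cytosolic members.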

How the data were processed

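SmartSeq2 libraries, primed with oligo-dT, were aligned with TopHat2 to hg19, per the submitters' processing notes; for the counting program, annotation and versions, nothing is given in the sources used here. The authors deposited 1 file per library in TPM from uniquely aligned reads; each library sums to 1000000. Whole reads and gene lengths were recovered from the TPM steps (tolerance 0.001) for 17860 of 19092 genes above 0 (93.5%) and 78 members, giving 4125273 to 8432015 reads per library.

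The 14398 genes that reached 1 TPM in 2 or more libraries were fitted with limma 3.58.1 (R 4.3.3, trend) on log2(TPM + 1), all 16 libraries, 1 coefficient per group, 8 residual and 3.18 prior degrees of freedom; two-sided p-values were adjusted by the Benjamini-Hochberg method, with a threshold of 0.05. Fold changes are on the log2(TPM + 1) scale, which understates changes of low genes. The scripts were tested on simulated data.

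Named genes were, per contrast, the 6 largest rises and 6 largest falls among called members, and the 5 highest and 5 lowest members. Also named were 16 fixed members in every stimulation, of which 14 were tested. Called genes of the comparison lists were named up to 4 each, and not all of them between untreated lines. RPL7, RPS2, RPS28, RPL31 in stimulated BJAB, RPL4 in untreated BJAB and members shown for a range were named after their values were seen. Members and lists were chosen with earlier results of these data known. Alternatives changed the pseudocount, filter, scaling, trend, libraries fitted and block. Leaving out the 3 libraries that stood apart and centring on the members were added after the data were seen. Start sequences are from RefSeq (GRCh38.p14), matched by symbol. The values of 1 member are included in the counts and medians but are not reported here.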

Additional observations from a re-analysis of the deposited data

How the results depend on the processing

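Counts of called members after LPS in THP-1 and after stimulation of Jurkat stayed at 0 under every alternative, and those after LPS in U937 at 0 to 6 with 1 library left out. In BJAB stimulation, 3 calls became 0 with centring on the shortest length class, the line's libraries alone, median-of-ratios scaling, no filter, no trend, the replicate block or voom, 1 with centring on the members (RPL7, higher), a pseudocount of 0.1 or without the first U937 and BJAB stimulated libraries, and 10 with quantile normalization; leaving out 1 library gave 0 to 24. In untreated THP-1, 11 calls became 29 with the controls alone, 3 with median-of-ratios scaling, 7 with no trend, 6 with the replicate block, 5 with voom, 19 without the first U937 and BJAB stimulated libraries and 27 without the 3 libraries apart; with 1 left out, 3 to 14. In untreated U937, 11 became 19 centred on the shortest class, 40 with the controls alone, 1 with median-of-ratios, 7 with no trend, 7 scaled to other genes, 5 with voom, 27 and 35 without those 2 and 3 libraries; with 1 left out, 2 to 15. In untreated Jurkat, 8 became 21, 2 with median-of-ratios, 4 with no trend, 3 with the replicate block, 5 scaled to other genes, 2 with voom, 18 and 19; with 1 left out, 1 to 12. In untreated BJAB, 13 became 34, 5 with median-of-ratios, 27 and 30; with 1 left out, 7 to 20. The response differences gave 0 to 1 and 0 to 10 with 1 left out. The cause of these moves was not tested, and these counts are given without the share of all tested genes called in each fit. Summed shares with 1 library left out are the values of the other library. Of single-gene results, 1021 called values stayed called and 281 did not, 12 others became called, and 0 changed sign while called. No label says what the replicate numbers mark; deviations of same-numbered libraries correlated at 0.01 in THP-1, -0.04 in U937, 0.02 in Jurkat and 0.14 in BJAB, so the samples were taken to share only a number, and the replicate block changed no other count by over 1.5 times.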
